A study of Mus musculus with 6 samples.

Results

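The genes described here encode 10 mouse proteins that detect foreign or misplaced nucleic acid or relay that detection: the RIG-I-like receptors Ddx58 (RIG-I, the symbol the deposited table uses for Rigi), Ifih1 (MDA5) and Dhx58 (LGP2), their adaptor Mavs, the DNA sensor Cgas and its adaptor Sting1, the Z-nucleic acid sensor Zbp1, the endosomal receptor Tlr3, the kinase Eif2ak2 (PKR) and the RNA editor Adar. They were chosen by symbol, with earlier results of these data known, and all 10 were found among the 28789 genes of the table. The libraries came from TCMK1, a mouse renal tubular epithelial cell line, and all of them received angiotensin II (Ang II), a hormone peptide that raises blood pressure and drives kidney fibrosis. The genotype of 3 libraries is given as control and that of the other 3 as overexpression of YOD1, an OTU-family enzyme that takes ubiquitin off proteins, and the series set out to find the pathways YOD1 acts on under Ang II. The labels name neither the vector used for YOD1 nor any empty vector in the controls, no library without Ang II was analysed here, and nothing says whether replicates were separate cultures, so every p-value measures only the spread between these libraries.

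RIG-I and MDA5 bind double-stranded RNA in the cytosol and pass the signal to MAVS on the mitochondrial surface, while cGAS binds double-stranded DNA and makes a cyclic dinucleotide that activates STING. Both routes lead to the kinase TBK1 and the factor IRF3, which switch on type I interferon. Interferon in turn raises the transcripts of many of the sensors themselves, so that several of them are classed as interferon-stimulated genes, and renal tubular cells are known to carry both routes. Interferon signals through JAK kinases and STAT factors.

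Expression was given as FPKM, a count of fragments scaled to transcript length and to the mapped fragments of the library, so levels of different genes can be set side by side. The read depth is unknown from FPKM. The steps between low values, which only 3.28% to 4.66% of low genes shared, gave relative depths, with control 1 as the reference, of 0.979 and 1.02 for the remaining controls and of 0.801 to 0.841 for the YOD1 libraries. Yod1 itself stood at 0.842, 0.757 and 0.684 FPKM in controls 1, 2 and 3 and at 1.73, 7.56 and 1.86 FPKM in YOD1 libraries 1, 2 and 3, all above the controls; whether the introduced sequence is counted here is not known. The ribosomal transcript Rn18s-rs5 made up at most 0.733% of all FPKM in a control and at least 2.17% in a YOD1 library, with the highest share (3.904%) in YOD1 library 2. Of 15 markers of tubular epithelium, 13 reached 1 FPKM in at least 3 libraries, among them the cadherin genes Cdh1 and Cdh16 and the lineage factor Pax8.

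In the controls the adaptors and the RNA editor were clearly expressed, while several of the receptors were barely detected. In bulk RNA such as this, fewer cells with a transcript and less of it per cell cannot be told apart. Adar (mean 21.9 FPKM) and Mavs (20.7 FPKM) were the most abundant and their control ranges overlapped. Sting1 followed at 6.17 FPKM, apart from both neighbours, and then Cgas at 2.39 FPKM, Eif2ak2 at 1.67 FPKM, Ddx58 at 1.40 FPKM and Dhx58 at 1.15 FPKM. The control ranges of Cgas and Eif2ak2 overlapped, as did those of Ddx58 and Dhx58, whereas Eif2ak2 lay above Ddx58 in every control. Tlr3 (0.508 FPKM), Ifih1 (0.257 FPKM) and Zbp1 (0.242 FPKM) were below 1 FPKM in each control, and the ranges of Ifih1 and Zbp1 overlapped. The adaptors Mavs and Sting1 therefore stood above every sensor that signals through them. In the YOD1 libraries Dhx58 (mean 6.36 FPKM) and Zbp1 (4.23 FPKM) stood above Cgas, Eif2ak2 and Ddx58 by mean, although the ranges of all 5 overlapped there, and Adar and Mavs were again the highest. Without YOD1 library 2 the mean of Zbp1 was 1.61 FPKM, below Cgas (1.85 FPKM) and Ddx58 (1.68 FPKM), and that of Dhx58 was 2.94 FPKM, still above both.

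**Figure D1:**
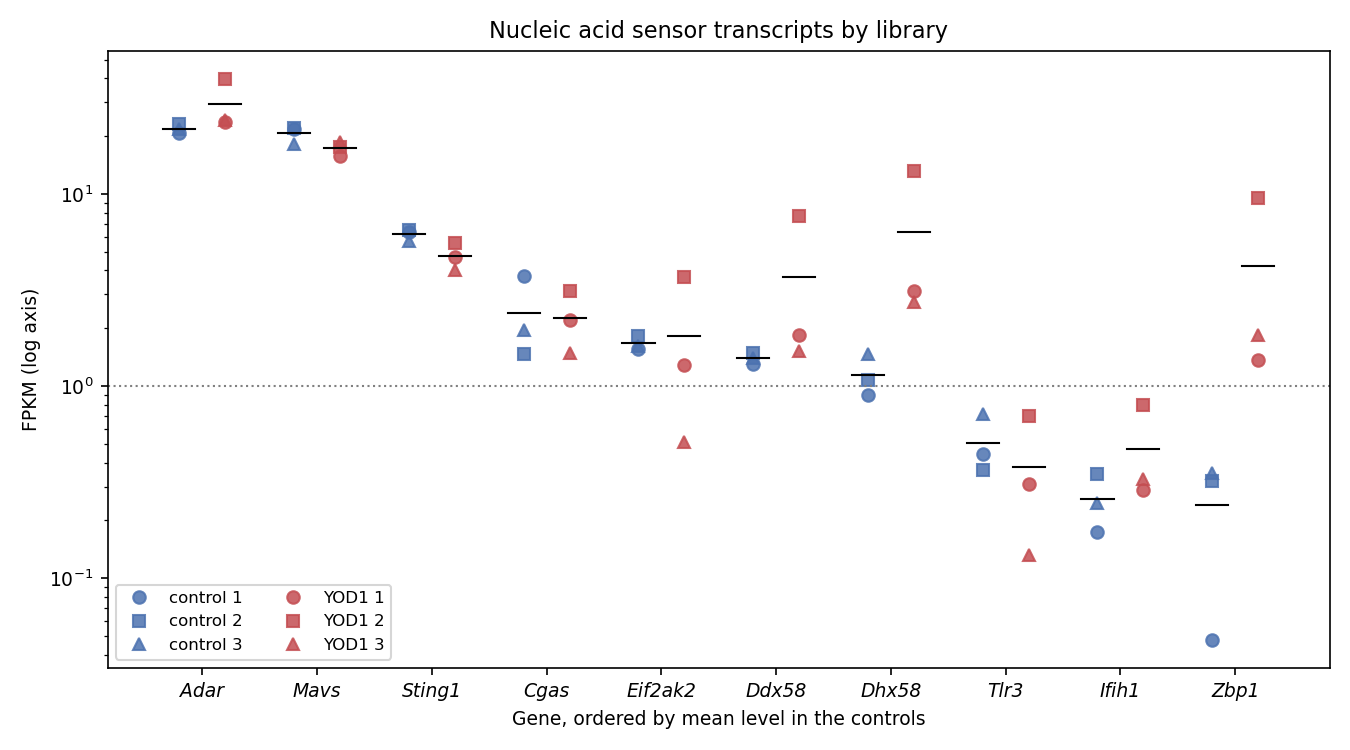
FPKM of the 10 sensor genes on a log axis in the 3 control (blue) and 3 YOD1 (red) libraries, 1 symbol shape per replicate number; black bars are group means and the dotted line is 1 FPKM. Zbp1 and Dhx58 lie higher in all YOD1 libraries, and YOD1 library 2 (red squares) is the highest YOD1 library for 9 of the 10 genes.

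Over the whole table, limma on log2(FPKM + 1) called 0.479% of 11483 tested genes at an adjusted p of 0.05, 0.444% higher and 0.0348% lower with YOD1. Of the 10 sensors 8 had at least 1 FPKM in at least 3 libraries and were tested; Ifih1 and Tlr3 were under 1 FPKM in every library and were not. Zbp1 passed this filter only through its 3 YOD1 libraries, so its groups could not overlap and it adds no support to the counts that follow. None of the 8 passed the limma test, and 2 of them, Zbp1 and Dhx58, had an unadjusted p under 0.05, against 20.9% of all tested genes. Yod1 itself did not pass that test either (limma adjusted p = 0.141). Higher in every YOD1 library than in every control were 4 of the 8 (Zbp1, Dhx58, Ddx58 and Adar), against 9.77% of tested genes, and lower was 1, Sting1, against 19.1%. The median log2 fold change of the 8 was 0.17, with 4 above and 4 below 0, and that of all tested genes was -0.10.

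Dhx58 encodes LGP2, a helicase without the signalling domains of its relatives that tunes RIG-I and MDA5. It stood at 0.896, 1.07 and 1.48 FPKM in controls 1, 2 and 3 and at 3.15, 13.2 and 2.74 FPKM in YOD1 libraries 1, 2 and 3. The groups did not overlap, YOD1 libraries 1 and 3 were near each other, and YOD1 library 2 was 4.197 times the next. The group means were 1.15 ± 0.298 and 6.36 ± 5.93 FPKM (SD, n = 3 each), a ratio of 5.54, which on the log2(FPKM + 1) scale used for all log2 fold changes here was a change of 1.499 (SE 0.43, limma adjusted p = 0.128). Without YOD1 library 2 the ratio of means was 2.56 and the log2 fold change 0.88, with an SE of 0.19 (limma adjusted p = 0.0955). The authors' deposited table lists Dhx58 with q = 0.0298 and marks it as significant, a mark that 0.66% of its genes carry in the higher direction.

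Ddx58, which encodes RIG-I, the receptor for RNA with a 5′ triphosphate end, stood at 1.301, 1.49 and 1.41 FPKM in the controls and at 1.84, 7.70 and 1.52 FPKM in YOD1 libraries 1, 2 and 3. The groups did not overlap, but YOD1 library 3 was barely above control 2, and YOD1 library 2 was 4.18 times the next. The ratio of means was 2.63 with all libraries and 1.20 without YOD1 library 2. On the log2 scale the change went from 0.73 with an SE of 0.39 (limma adjusted p = 0.306) to 0.16 with an SE of 0.17 without that library (limma adjusted p = 0.589). The authors' deposited table gives Ddx58 q = 0.399.

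Ifih1, which encodes MDA5, the receptor for long double-stranded RNA, was low throughout, at 0.174, 0.351 and 0.248 FPKM in the controls and 0.287, 0.799 and 0.327 FPKM in the YOD1 libraries. Only YOD1 library 2 lay above the control range. It was tested only with no filter on low values, where its log2 fold change was 0.21 (limma adjusted p = 0.606). Summed over Ddx58, Ifih1 and Dhx58, the level of the receptors was 2.37, 2.92 and 3.13 FPKM in the controls and 5.28, 21.7 and 4.59 FPKM in the YOD1 libraries, so the sum was higher in each YOD1 library, and Dhx58 gave most of it there.

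Promoter sequence was at hand in the RefSeq table of build GRCm38.p6 for 7 of the 10 genes (Ddx58, Ifih1, Mavs, Cgas, Tlr3, Eif2ak2 and Adar), each window running from 250 bases before the annotated start to 50 after it. The interferon-stimulated response element is the DNA element through which interferon signalling acts on many interferon-stimulated genes, and its core was searched as GAAANNGAAA on both strands. It was found in 3 of the 7 genes, Ddx58, Ifih1 and Eif2ak2, against 3.99% of 27025 genes with a window of the same length and 3.44% of all 32851 windows, and in 12 of 22 interferon-stimulated reference genes that had a window. The 3 matches are shown with their surroundings, and Mavs is shown as the abundant adaptor without a match, with the match in capitals and each sequence on the gene's own strand.
Ddx58 (chr4:40239796-40239895, minus strand): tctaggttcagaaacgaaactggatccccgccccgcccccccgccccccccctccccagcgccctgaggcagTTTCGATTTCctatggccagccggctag
Eif2ak2 (chr17:78882543-78882642, minus strand): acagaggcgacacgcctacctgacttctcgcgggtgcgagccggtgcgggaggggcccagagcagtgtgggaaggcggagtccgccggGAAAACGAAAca
Ifih1 (chr2:62646206-62646233, minus strand): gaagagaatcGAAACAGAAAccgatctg
Mavs (chr2:131233993-131234092, plus strand): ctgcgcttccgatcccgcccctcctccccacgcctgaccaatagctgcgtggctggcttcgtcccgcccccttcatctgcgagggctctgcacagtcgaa

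Counted from 1 at the annotated start, the match covered bases 3 to 12 in Ddx58, where it lay on the opposite strand, 19 to 28 in Eif2ak2 and 33 to 42 in Ifih1. In YOD1 libraries 1, 2 and 3, Ddx58 stood at 1.32, 5.50 and 1.09 times its control mean, Ifih1 at 1.11, 3.11 and 1.27 times and Eif2ak2 at 0.776, 2.21 and 0.307 times. Of the 4 genes without a match, Mavs stood at 0.760, 0.846 and 0.904 times its control mean, Cgas at 0.922, 1.31 and 0.623, Tlr3 at 0.607, 1.38 and 0.259, and Adar at 1.09, 1.82 and 1.11. The genes with a match were the highest of the 7 in YOD1 library 2, but in libraries 1 and 3 Eif2ak2 lay below Cgas and Adar, which have none. Zbp1, Dhx58 and Sting1 had no window and are outside this ranking. In YOD1 library 2 they stood at 39.3, 11.5 and 0.899 times their control means. A match is a run of letters and not a measured binding site, and its absence from a window says nothing of elements elsewhere.

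Mavs, the adaptor on which RIG-I and MDA5 converge, was not higher in the YOD1 libraries, unlike Dhx58 and Ddx58. It stood at 21.9, 22.0 and 18.2 FPKM in the controls and at 15.7, 17.5 and 18.7 FPKM in the YOD1 libraries, and the groups overlapped through control 3 and YOD1 library 3. It was the only 1 of the 10 genes for which YOD1 library 2 was not the highest YOD1 library. Its log2 fold change was -0.24 with a 95% interval from -0.55 to 0.06 (limma adjusted p = 0.317). The ratio of the summed receptors to Mavs was 0.108 to 0.172 in the controls and 0.336, 1.24 and 0.245 in YOD1 libraries 1, 2 and 3. Most of that sum in the YOD1 libraries was Dhx58, which lacks the signalling domains, so the ratio does not compare only signalling receptors with their adaptor.

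Cgas, the enzyme that makes cyclic GMP-AMP on DNA, stood at 3.73, 1.48 and 1.96 FPKM in the controls and 2.20, 3.12 and 1.49 FPKM in the YOD1 libraries. Its controls spread more widely than its YOD1 libraries and the groups overlapped. The log2 fold change was -0.03 with a 95% interval from -0.62 to 0.57 (limma adjusted p = 0.962), and its sign turned with median-ratio scaling (0.04) and with the length and GC correction (0.10), so no direction is given for it. Sting1, the membrane adaptor that cyclic GMP-AMP binds, stood at 6.35, 6.46 and 5.71 FPKM in the controls and 4.68, 5.55 and 4.01 FPKM in the YOD1 libraries. All 3 YOD1 libraries lay under all 3 controls, by a small margin between YOD1 library 2 and control 3. The log2 fold change of Sting1 was -0.33 with a 95% interval from -0.68 to 0.03 (limma adjusted p = 0.268), and the authors' deposited table gives q = 0.683.

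Zbp1, a protein with Z-nucleic acid binding domains that can start necroptosis through RIPK3, had the widest span of the 10. It stood at 0.0479, 0.323 and 0.354 FPKM in the controls and at 1.37, 9.49 and 1.85 FPKM in YOD1 libraries 1, 2 and 3. The groups did not overlap, all controls were near the bottom of the range, and YOD1 library 2 was 5.13 times the next. The means were 0.242 ± 0.168 and 4.23 ± 4.56 FPKM (SD, n = 3 each), a ratio of 17.5 that rests on a very low control level. Its log2 fold change was 1.75 with an SE of 0.46 (limma adjusted p = 0.116), and with a pseudocount of 0.1 in place of 1 it was 3.31 with an SE of 0.71 (limma adjusted p = 0.0915). Without YOD1 library 2 the ratio fell to 6.66 and the log2 fold change to 1.07, while the SE went to 0.18, and Zbp1 then passed in limma (adjusted p = 0.0441, with adjusted p from 0.0441 to 0.351 over its 12 alternatives), where 0.401% of genes were called higher. Zbp1 entered the test only because it exceeded 1 FPKM in the 3 YOD1 libraries, so it had to differ, and this call is no independent support for the difference. The authors' deposited table lists Zbp1 with q = 0.0124 and marks it as significant.

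Adar, whose longer isoform is the other mammalian protein with a Z-nucleic acid binding domain and which edits adenosine to inosine in double-stranded RNA, was the most abundant of the 10. It stood at 20.8, 23.1 and 21.7 FPKM in the controls and at 23.8, 39.7 and 24.3 FPKM in the YOD1 libraries. The groups did not overlap, yet YOD1 libraries 1 and 3 exceeded the highest control only slightly. For Adar the log2 fold change was 0.37 with an SE of 0.19 (limma adjusted p = 0.292) and 0.13 without YOD1 library 2 (limma adjusted p = 0.617). Exons of Adar overlap those of Chrnb2 on the opposite strand in GENCODE M21 by up to 1014 bp, and the library strand is not stated, but Chrnb2 stood at only 0.324 and 0.250 FPKM in the group means. The ratio of Zbp1 to Adar was 0.00230, 0.0140 and 0.0163 in the controls and 0.0574, 0.239 and 0.0762 in the YOD1 libraries.

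Eif2ak2 encodes PKR, which halts translation by phosphorylating eIF2α when it binds double-stranded RNA. It stood at 1.55, 1.82 and 1.63 FPKM in the controls and at 1.29, 3.69 and 0.512 FPKM in YOD1 libraries 1, 2 and 3. The controls were tightly grouped, whereas YOD1 library 2 lay above all of them and YOD1 libraries 1 and 3 below all of them. The log2 fold change was -0.07 with a 95% interval from -0.83 to 0.68 (limma adjusted p = 0.915), and it was 0.09 after the length and GC correction, 0.30 without YOD1 library 3 and -0.52 without YOD1 library 2 (limma adjusted p = 0.185 for the last). Tlr3, the endosomal receptor for double-stranded RNA, stood at 0.441, 0.366 and 0.717 FPKM in the controls and 0.308, 0.700 and 0.132 FPKM in the YOD1 libraries. These groups overlapped, and with no filter on low values the log2 fold change of Tlr3 was -0.14 (limma adjusted p = 0.718).

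**Figure D2:**
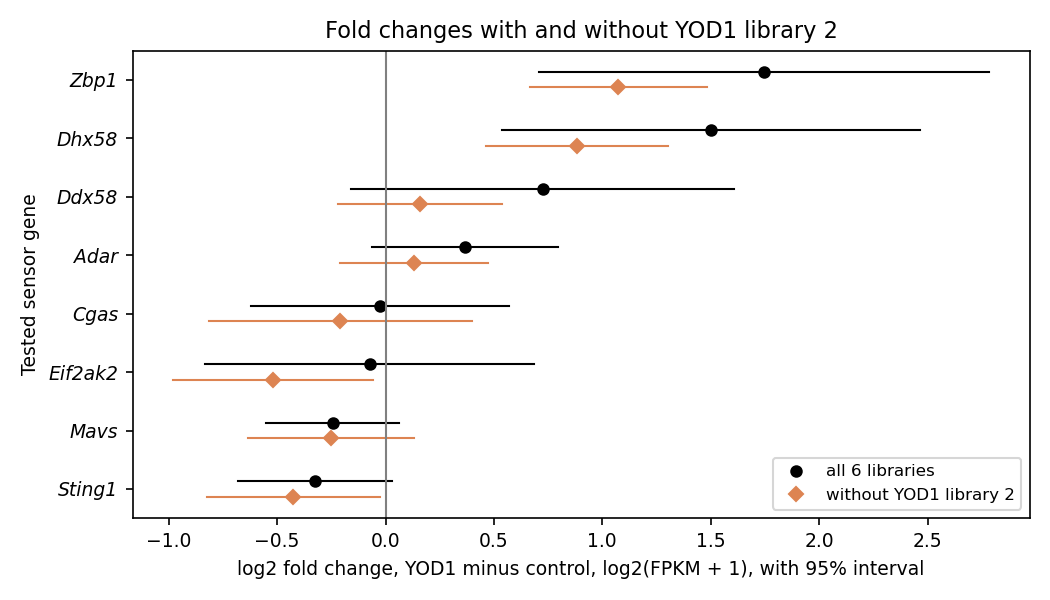
Log2 fold change of the 8 tested sensors, YOD1 minus control on the log2(FPKM + 1) scale, with its 95% interval from limma, for all 6 libraries (black) and without YOD1 library 2 (orange). Zbp1 goes from 1.75 to 1.07 and Dhx58 from 1.499 to 0.88, with narrower intervals, and Ddx58 from 0.73 to 0.16.

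YOD1 library 2 stood apart for most of the sensors. It was the highest YOD1 library for 9 of the 10 genes and the highest of all 6 libraries for 6 of them. Among the 8 tested genes it was the highest YOD1 library for 7, against 39.2% of all tested genes. A count chosen after the values were seen found YOD1 library 2 at least 2 times the next YOD1 library in 6 of the 10 genes, and in 4 of the 8 tested, against 0.636% of all tested genes. Relative to the control mean on the log2(FPKM + 1) scale, Zbp1 was 0.94, 3.09 and 1.21 higher in YOD1 libraries 1, 2 and 3, and Dhx58 was 0.96, 2.73 and 0.81 higher. The same values were 0.25, 1.86 and 0.07 for Ddx58 and 0.12, 0.84 and 0.15 for Adar. Zbp1 and Dhx58 were thus at least 0.81 above the control mean in each YOD1 library, and Ddx58 and Adar by that much in YOD1 library 2 only. Eif2ak2 was 0.81 above it in YOD1 library 2 and 0.82 below it in YOD1 library 3, and for Mavs, Sting1, Cgas and Tlr3 the largest difference from the control mean was a lower level in YOD1 library 1 or 3. YOD1 library 2 also had the highest Yod1 level and the highest share of Rn18s-rs5, and the part of either in these values was not tested.

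**Figure D3:**
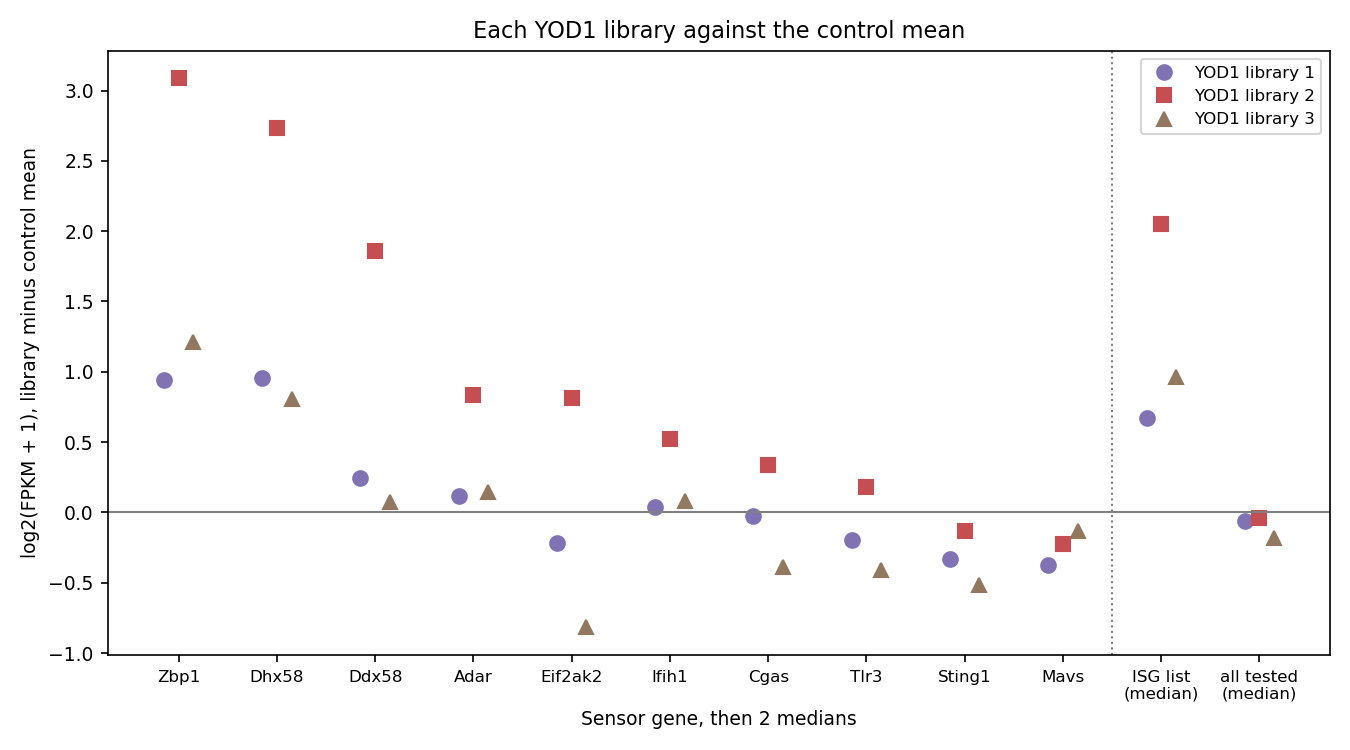
Each YOD1 library minus the control mean on the log2(FPKM + 1) scale for the 10 sensors, followed by the medians of the tested interferon-stimulated reference genes (ISG list) and of all tested genes. YOD1 library 2 reads 3.09 for Zbp1 and 2.73 for Dhx58, while the median over all tested genes is -0.04 in that library.

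The genes whose profile over the 6 libraries was most like that of the widest-ranging sensors were found among 11475 tested genes by the root mean square difference of centred log2(FPKM + 1) values. For Zbp1 they were Rtp4, Oasl2 and Xaf1, at differences of 0.029, 0.12 and 0.19, and for Dhx58 they were Xaf1, Rtp4 and Yod1, at 0.11, 0.21 and 0.23. For Ddx58 they were Helz2, Irgm2 and Igtp, at 0.14, 0.15 and 0.19. Rtp4 stood at 0.0541, 0.383 and 0.374 FPKM in the controls and 1.33, 9.88 and 1.92 FPKM in the YOD1 libraries, almost the values of Zbp1 library by library. With 6 libraries, 1 of them far above the rest, many genes can share such a shape by their value in that library alone. Zbp1, Rtp4 and Xaf1 were also under 1 FPKM in every control and passed the filter only through the YOD1 libraries. Low controls were therefore built into the shape these genes share.

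**Figure D4:**
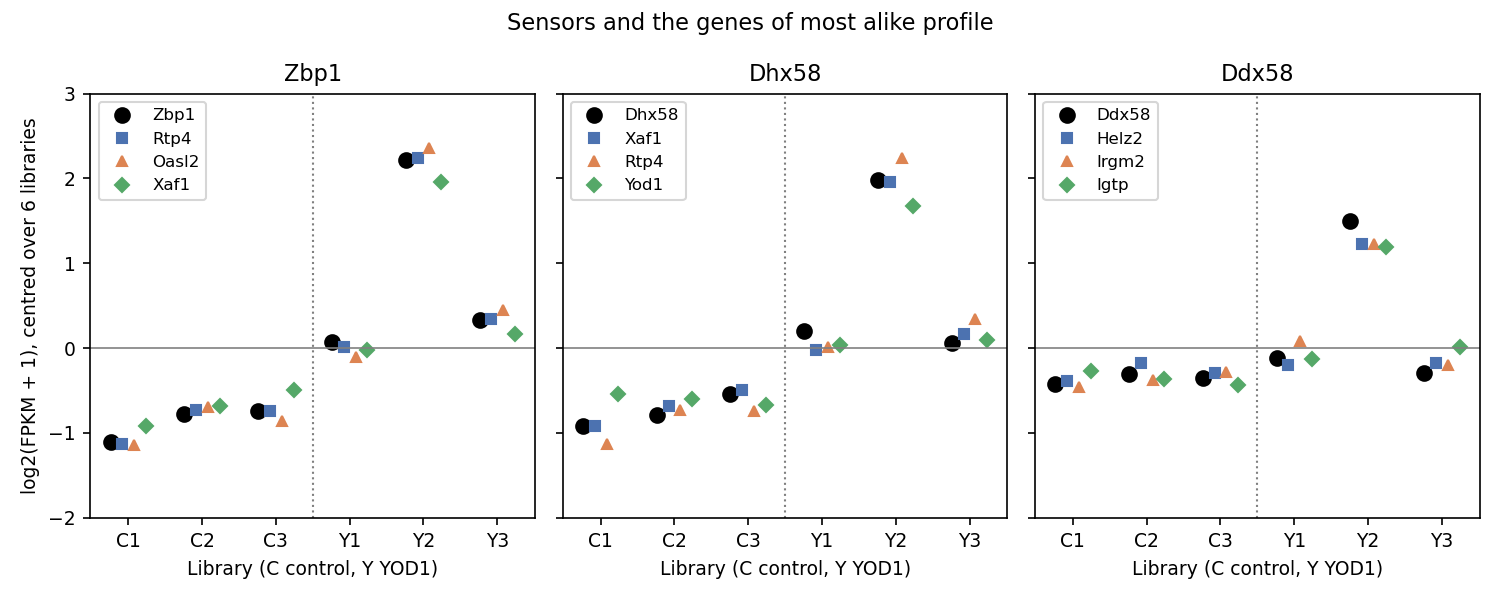
Log2(FPKM + 1) centred over the 6 libraries (C control, Y YOD1) for Zbp1, Dhx58 and Ddx58 (black circles) and, in each panel, the 3 tested genes with the closest profile (coloured symbols). All are highest in YOD1 library 2, and Rtp4 differs from Zbp1 by a root mean square of 0.029.

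The list of 30 interferon-stimulated reference genes, chosen with earlier results of these data known, had 19 tested members, of which 3 were called higher and 0 lower by limma: Irf7, Bst2 and Ifi27. Of all tested genes 0.444% were called higher and 0.0348% lower, shares that also stand beside the calls in the lists below. At least Rtp4 and Xaf1 of the 19 were under 1 FPKM in every control. They passed the filter only through the YOD1 libraries, so they had to be higher there. With these genes included, the median log2 fold change of the 19 was 1.27, and their median difference from the control mean was 0.67, 2.05 and 0.97 in YOD1 libraries 1, 2 and 3. Zbp1 stood above that median in all 3 libraries, Dhx58 in libraries 1 and 2, and Ddx58 in none. Usp18, which removes ISG15 from proteins, stood at 1.12, 1.45 and 1.51 FPKM in the controls and 7.84, 55.9 and 8.47 FPKM in the YOD1 libraries without passing the test (limma adjusted p = 0.0759). Of the interferon genes themselves, Ifnb1, the main type I interferon of non-immune cells, was listed at 0 in 5 libraries and at 0.281 FPKM in YOD1 library 3, and Ifnl3 was at most 0.0092 FPKM.

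Downstream of the adaptors, 20 kinase and adaptor genes of the TBK1 and IRF3 route were all tested, 1 was called higher, the factor Irf7, and 0 lower (limma), with a list median of -0.12. Tbk1 stood at 4.59 ± 1.05 and 3.81 ± 0.49 FPKM and Irf3 at 15.5 ± 0.53 and 16.9 ± 1.18 FPKM (SD, n = 3 each, limma adjusted p = 0.529 and 0.609). The largest fold changes that did not pass were those of Tradd (0.52), Traf3 (-0.50), Tank (-0.45) and Optn (-0.42). Early output genes, of which 8 of 16 were matched and 5 tested, held 1 called higher, the T-cell chemokine Ccl5, and 0 lower. Ccl5 was highest in YOD1 library 3 (17.4 FPKM), not in YOD1 library 2 (8.79 FPKM), unlike Zbp1, Dhx58 and Ddx58, and Cxcl10, which was not called, was 1.11 higher by mean on the log2 scale (adjusted p = 0.0523 in limma).

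Regulators of the RIG-I-like receptors had 20 of 23 genes tested, 0 called in either direction by limma (0 also at an unadjusted p under 0.05) and a list median of -0.06. Of all tested genes 20.9% had an unadjusted p under 0.05 in limma, the share to set beside such counts in this and the later lists and pathway terms. Trim25, a ubiquitin ligase known for activating RIG-I, stood at 17.2, 18.9 and 17.7 FPKM in the controls and 19.0, 39.5 and 14.9 FPKM in the YOD1 libraries, with YOD1 library 2 apart and the groups overlapping (log2 fold change 0.31, limma adjusted p = 0.544). Mex3c (-0.51), Ddx3x (-0.46) and Trim14 (0.33) had the other largest fold changes of that list. Genes of STING handling and DNA clearance had 24 of 26 tested, 0 called by limma (7 at an unadjusted p under 0.05, against 20.9% of all tested genes) and a median of -0.12. Among them Ifi35 (log2 fold change 1.35, limma adjusted p = 0.0501) and Rnaseh2c, a subunit of the RNase that clears RNA-DNA hybrids (1.17, limma adjusted p = 0.0607), were higher in all YOD1 libraries, with Slc19a1 at 0.58 and Pqbp1 at -0.48. Of these 24 genes, 3 were higher and 4 lower in all YOD1 libraries than in all controls. The shares of all tested genes were 9.77% and 19.1%. The exonuclease Trex1, which degrades cytosolic DNA, overlapped between the groups (log2 fold change -0.10, limma adjusted p = 0.867).

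Of 10 genes of the ZBP1 and necroptosis route 9 were tested, 0 were called by limma (0 also at an unadjusted p under 0.05) and the median was -0.21. Ripk3, the kinase ZBP1 binds, stood at 22.0, 20.0 and 18.2 FPKM in the controls and 19.5, 21.9 and 20.9 FPKM in the YOD1 libraries, and Mlkl, which RIPK3 phosphorylates, at 13.8, 10.9 and 11.2 and at 10.4, 11.7 and 7.89 FPKM. Both overlapped between the groups, with log2 fold changes of 0.05 and -0.25 (limma adjusted p = 0.832 and 0.414); Gsdmd (0.32), Ripk1 (-0.29) and Fadd (0.28) were further from 0. The Tlr3 route had 13 of 15 genes tested, 0 called by limma (2 at an unadjusted p under 0.05) and a median of -0.15. Its adaptor Ticam1 stood at 10.9, 12.2 and 9.16 FPKM in the controls and 7.74, 6.01 and 7.46 FPKM in the YOD1 libraries, without overlap and without passing (log2 fold change -0.54, limma adjusted p = 0.133). Rnaset2a (0.53), Traf3 (-0.50) and Hsp90b1 (-0.46) followed. Of the 13 tested genes, 0 were higher and 4 lower in all YOD1 libraries than in all controls. The shares of all tested genes were 9.77% and 19.1%.

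All 14 genes around PKR and the integrated stress response were tested, 0 were called by limma (2 at an unadjusted p under 0.05) and the median was -0.13. The other eIF2α kinases did not pass, with log2 fold changes of -0.55 for Eif2ak3 (PERK), -0.30 for Eif2ak4 (GCN2) and -0.13 for Eif2ak1 (HRI), and Trib3 was at 0.40 and Tarbp2 at 0.29. Of 16 genes of the ADAR family and of double-stranded RNA binding proteins 14 were tested, 0 were called by limma (1 at an unadjusted p under 0.05) and the median was -0.21, with Dhx9 (-0.46), Drosha (-0.42), Stau2 (-0.34) and Tarbp2 the largest. Adarb1, the second editing enzyme, stood at 1.58 ± 0.09 and 1.43 ± 0.21 FPKM (SD, n = 3 each) and Adarb2 at under 0.1 FPKM in every library.

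RNA of leukocytes, which carry many of these sensors at high levels, was looked for through 9 marker genes, of which 8 were matched. Their summed level was 24.6 to 35.5 FPKM in the controls and 27.9 to 38.6 FPKM in the YOD1 libraries, and 3 of the 8 reached 1 FPKM in at least 3 libraries (Lyz2, Cd68 and Csf1r; 0 called by limma and 1 at an unadjusted p under 0.05). The markers Ptprc and Cd3e stayed under 0.1 FPKM in each library. Lyz2 stood at 1.47, 8.15 and 9.04 FPKM in the controls and 10.5, 17.99 and 18.7 FPKM in the YOD1 libraries. It was higher in all of these and lowest in control 1, as Zbp1 and Dhx58 were. Cd68 and Csf1r overlapped between the groups. Cd68 went from a mean of 18.2 FPKM in the controls to 13.5 FPKM with YOD1, and Csf1r from 4.39 to 4.59 FPKM. Their log2 fold changes were -0.37 and 0.05 (limma adjusted p = 0.307 and 0.856). The part of other cells in the sensor levels was not tested. Of 8 fibroblast markers 5 were tested and of 5 endothelial markers 0, with summed levels of 13.6 to 16.8 and 0.730 to 1.40 FPKM in the controls and of 7.43 to 16.3 and 1.34 to 2.24 FPKM in the YOD1 libraries.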

How the data were processed

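Poly(A) RNA of 6 libraries was sequenced in paired ends, per the labels' protocols. The authors deposited 1 table with FPKM per gene and library, per the file headers, and 4 columns of their own comparison: a fold ratio (YOD1 over control), that ratio as log2, a p-value and a q-value. Bowtie 0.12.2, StringTie 1.3.0 and HISAT2 2.0 are listed without roles, with build mm8, per the submitters' processing notes; no source used here names the authors' test. Columns of per-sample values left unused numbered 0.

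The table holds no counts, so log2(FPKM + 1) was fitted with limma 3.58.1 in R 4.3.3 (variance trend, two-sided, Benjamini-Hochberg over all tested genes) on genes that reached 1 FPKM in 3 or more libraries. That scale understates how far low genes moved. No permutation p is reported, because 3 against 3 libraries allow none under 0.1. The members and lists were chosen with earlier results of these data known. Named genes were all members, called members of each list, and otherwise the up to 4 of largest fold change; others were named for their role after their values were seen. Some genes that this rule would name are not reported here. Alternatives were other filters, a pseudocount of 0.1, median-ratio scaling, no variance trend, a replicate block, correction for transcript length and GC content (GENCODE M21, splines with 4 degrees of freedom) and each library left out; the filter used all 6 libraries throughout. Python 3.11.15, pandas 2.3.3 and matplotlib 3.10.9 were used.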

Additional observations from a re-analysis of the deposited data

How the results depend on the processing

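Of the 8 tested sensors, 0 were called by limma with all libraries and 2 had an unadjusted p under 0.05, against 20.9% of all tested genes. Over the 13 alternatives 1 was called without YOD1 library 2 (Zbp1) and 0 in all others. Sensors at an unadjusted p under 0.05 (limma) numbered 0 to 4. They were 4 after length and GC correction, where 2657 of 11386 genes were under that p. Without YOD1 library 1, 2 or 3 they were also 4 (1730, 2646 and 2308 of 11483 genes). Zbp1 was among the 4 each time, and without YOD1 library 2 so were Sting1 and Eif2ak2, both lower. Ddx58, Dhx58, Zbp1 and Adar kept a log2 fold change above 0, and Mavs and Sting1 one below 0, in each alternative in which they were tested. Zbp1 passed the filter only through its YOD1 libraries, so its steady sign adds no support. Cgas (-0.03) turned to 0.037 with median-ratio scaling, 0.10 after length and GC correction, 0.16 without YOD1 library 3 and 0.24 without control 1, and ranged from -0.22 to 0.24 when a library was left out. Eif2ak2 (-0.07) turned to 0.088 after length and GC correction and 0.30 without YOD1 library 3, with -0.52 without YOD1 library 2 as its lowest value. The cause of these turns was not tested. Over all tested genes the main count of calls was 55, with 144 under median-ratio scaling, 20 after length and GC correction (14 higher and 6 lower, against 51 and 4), 0 of 28789 with no filter (3427 at an unadjusted p under 0.05), and 19 to 242 when a library was left out, the most without control 3 (145 higher and 97 lower; 107 and 25 without YOD1 library 3). With the replicate number as a block 41 genes (33 higher and 8 lower) and 0 sensors were called. Same-numbered libraries deviated from their group means with correlations of 0.30, -0.12 and -0.11 across genes, so the numbers were not taken to pair them. The unknown depth limits Zbp1, Ifih1 and Tlr3 most, which lay under 1 FPKM in all controls.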

Other observations

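Other nucleic acid sensors, a list of 33 genes with 19 tested, had 0 called by limma (6 at an unadjusted p under 0.05, against 20.9% of all tested genes) and a median log2 fold change of -0.14. The oligoadenylate synthetases, which detect double-stranded RNA and activate RNase L, had its largest fold changes. Oas3 stood at 0.844, 1.24 and 1.82 FPKM in the controls and 3.76, 33.3 and 4.77 FPKM in YOD1 libraries 1, 2 and 3 (log2 fold change 2.11, limma adjusted p = 0.129), and Oas1a (1.99), Oas1g (1.93) and Oas1b (0.96) also had groups that did not overlap, though reads of these close copies can be split between them. YOD1 library 2 was the highest for these 4 genes, as it was for Zbp1 and Dhx58. Of the 19 tested genes, 4 were higher and 4 lower in all YOD1 libraries than in all controls. The shares of all tested genes were 9.77% and 19.1%. Ifi204, a DNA sensor of the AIM2-like family, stood at 0.309, 0.276 and 0.520 FPKM in the controls and 0.988, 2.95 and 0.432 FPKM in the YOD1 libraries, and Tlr7, Tlr8, Tlr9, Nlrp3 and Nlrp1b stayed under 0.1 FPKM throughout.

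Pathway terms of the deposited annotation were chosen after the values were seen. Beside the sensors, the RIG-I-like receptor pathway had 41 tested genes, of which 1 was called higher (Irf7) and 0 lower, with a median log2 fold change of -0.08; 9 genes were higher and 5 lower in all YOD1 libraries than in all controls, where 9.77% and 19.1% of all tested genes were. The cytosolic DNA-sensing pathway had 33, with Ccl5 and Irf7 called higher, 0 lower, a median of -0.03, and 11 genes higher and 1 lower in all YOD1 libraries. The necroptosis term had 92, with 0 called by limma (13 at an unadjusted p under 0.05) and a median of -0.11, and 8 genes higher and 17 lower in all YOD1 libraries. The Toll-like receptor pathway had 62, with Ccl5 and Irf7 called higher, 0 lower, a median of -0.17, and 7 genes higher and 8 lower in all YOD1 libraries.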
